A study of Mus musculus with 18 samples.

Results

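Colony-stimulating factors are secreted proteins that drive the production, survival and function of myeloid cells. The 9 genes described here are their receptors and ligands in mouse bone marrow-derived macrophages (BMDMs), together with a pair of progenitor receptors taken for contrast. Csf1r encodes the receptor of M-CSF and Csf3r that of G-CSF. Csf2rb encodes the common beta chain in the receptors of GM-CSF, IL-3 and IL-5, and Csf2rb2 encodes a beta chain used by IL-3 alone. Csf1, Csf2 and Csf3 encode the ligands M-CSF, GM-CSF and G-CSF, and Kit and Flt3 encode the receptors of stem cell factor and FLT3 ligand. The genes were chosen by name, and the accessible sites in each gene body and within 50000 bp of its most upstream start site were collected. These are 9 of 21938 protein-coding genes, and their windows held 120 of 84660 summits and 85 of 59617 extended regions.

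The cells came from wild type male C57/BL6 mice of 6 to 8 weeks, and macrophages were grown from their bone marrow. Every group, the untreated one included, was first kept in DMSO, the solvent control, for 1 h. Stimulated groups next received 10 ng/mL of either lipopolysaccharide (LPS), the bacterial ligand of Toll-like receptor 4, or IL-4, a cytokine, for 0.5, 1, 2 or 4 h. There were 9 groups with 2 libraries each, and chromatin accessibility was measured by ATAC-seq, in which the Tn5 transposase inserts adapters into open DNA. The lists hold reference peaks, summits (the position of highest signal in a peak, with a score) and extended regions, and each list joins all 18 libraries. A site listed here may therefore come from a single stimulus or from all of them, and no value per library, depth or replicate error can be given. The score has no stated scale. It ran from 102 to 2781 with a median of 737 and is used only to order summits.

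In the myeloid lineage, M-CSF acts through the tyrosine kinase CSF1R and is the factor on which most macrophages depend. GM-CSF, IL-3 and IL-5 act through a specific alpha chain joined to a common beta chain, and in the mouse a gene duplication has left a separate beta chain for IL-3, encoded by Csf2rb2. These chains, like the G-CSF receptor, have no kinase of their own and signal through JAK kinases and STAT proteins. G-CSF is chiefly known for neutrophil production. KIT and FLT3 are receptor tyrosine kinases of the same class as CSF1R and are best known from stem and progenitor cells. The ligand genes Csf2 and Csf3 are switched on by inflammatory signals in many cell types.

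All 8 macrophage markers examined, among them Adgre1, Cd68, Itgam and Spi1, carried a reference peak at a start site. The same was found for 1 of 4 T cell markers (Lck), 2 of 4 B cell markers (Ms4a1 and Pax5), 2 of 5 neutrophil and granulocyte precursor markers (Camp and S100a8), 3 of 5 stem and progenitor markers (Cd34, Gata2 and Meis1), 4 of 4 fibroblast and endothelium markers (Cdh5, Col1a1, Pdgfra and Pecam1) and 0 of 3 epithelium markers (Cdh1, Epcam and Krt8). With only the most upstream start site considered, the macrophage markers stayed at 8 of 8 and the neutrophil and granulocyte precursor markers at 2 of 5. The T cell markers fell to 0 of 4, the B cell markers to 1 of 4, the stem and progenitor markers to 2 of 5 and the fibroblast and endothelium markers to 2 of 4. Over all coding genes the shares were 56.5% with any start site and 52.1% with the most upstream one, and several of the counts for other cell types lie near these. An accessible start site is no measure of transcription.

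A reference peak within 1000 bp of an annotated start site was present at 9 of 9 genes, while 56.5% of all protein-coding genes had one. When only the most upstream start site was considered, 8 of 9 genes had a peak, against 52.1% of all genes. Kit was the gene without one. A CpG-rich start (at least 50% GC and an observed to expected CpG ratio of at least 0.6 over 1001 bp) was found at 3 of 9 genes, Csf1, Kit and Flt3, against 44.4% of all genes. Over all genes, 83.3% of those with a CpG-rich start and 27.1% of the others had a peak at the most upstream start. All 6 of the genes without a CpG-rich start had one, and Kit was among the 16.7% of CpG-rich genes that lacked it.

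The promoters of 5 genes are printed from RefSeq (assembly GRCm38.p6) because they show these differences letter by letter. Each runs 5′ to 3′ along the gene's own strand, from 250 bases before its RefSeq start to 50 bases after it, and capitals mark matches to any of 10 consensus motifs. For Csf3r and Kit the RefSeq start lies downstream of the most upstream GENCODE start from which distances are counted elsewhere, and for the other 3 genes they are the same. Csf2rb2 lies on the minus strand and its entry covers chr15:78305672-78305971, of which 116 bases fell in a reference peak. The Csf3r entry on the plus strand is chr4:126024409-126024708, with 170 bases in a peak. The Csf1 entry on the minus strand is chr3:107760420-107760719, with 106 bases in a peak. The Flt3 entry on the minus strand is chr5:147400440-147400739, with 76 bases in a peak, and the Kit entry on the plus strand is chr5:75574737-75575036, with 0.
Csf2rb2 promoter: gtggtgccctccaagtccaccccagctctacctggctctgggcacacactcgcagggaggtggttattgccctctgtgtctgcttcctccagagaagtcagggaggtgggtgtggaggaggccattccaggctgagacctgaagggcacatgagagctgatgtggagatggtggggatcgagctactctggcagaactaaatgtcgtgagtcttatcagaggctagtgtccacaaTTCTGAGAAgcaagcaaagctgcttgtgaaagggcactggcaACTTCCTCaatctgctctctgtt
Csf3r promoter: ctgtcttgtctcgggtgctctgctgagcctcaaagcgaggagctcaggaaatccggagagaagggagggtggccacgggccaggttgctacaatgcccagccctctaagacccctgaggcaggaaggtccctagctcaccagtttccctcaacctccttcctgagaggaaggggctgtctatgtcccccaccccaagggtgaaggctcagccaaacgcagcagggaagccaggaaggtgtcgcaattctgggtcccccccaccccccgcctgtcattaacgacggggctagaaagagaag
Csf1 promoter: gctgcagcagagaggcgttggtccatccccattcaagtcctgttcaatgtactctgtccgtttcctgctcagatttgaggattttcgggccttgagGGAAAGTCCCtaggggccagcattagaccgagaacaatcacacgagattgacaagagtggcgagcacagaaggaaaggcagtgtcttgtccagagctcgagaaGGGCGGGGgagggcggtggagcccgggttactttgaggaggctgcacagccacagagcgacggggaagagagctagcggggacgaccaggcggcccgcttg
Flt3 promoter: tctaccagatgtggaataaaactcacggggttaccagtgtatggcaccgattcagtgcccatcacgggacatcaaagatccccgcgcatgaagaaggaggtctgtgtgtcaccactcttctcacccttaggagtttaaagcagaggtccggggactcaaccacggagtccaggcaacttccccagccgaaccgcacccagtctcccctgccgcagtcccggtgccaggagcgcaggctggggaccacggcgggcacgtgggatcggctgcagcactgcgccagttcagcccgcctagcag
Kit promoter: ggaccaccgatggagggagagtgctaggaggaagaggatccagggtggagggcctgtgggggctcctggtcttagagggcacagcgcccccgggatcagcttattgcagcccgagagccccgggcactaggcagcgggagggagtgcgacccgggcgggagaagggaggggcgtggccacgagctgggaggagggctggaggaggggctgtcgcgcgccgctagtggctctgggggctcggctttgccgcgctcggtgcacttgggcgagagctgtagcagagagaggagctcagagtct

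The Csf2rb2 promoter contained a STAT match, TTCTGAGAA, which began 15 bases before the start, and a PU.1/ETS match, ACTTCCTC, from base 28 after it. STAT matches (TTCNNNGAA) occurred in 8.30% and PU.1/ETS matches (GAGGAAGT on either strand) in 3.20% of 32851 RefSeq promoters. The Csf1 promoter held an NF-kB match, GGAAAGTCCC, a motif found in 4.51% of promoters, and an SP/KLF match, GGGCGGGG, found in 17.6%. The promoters of Csf3r, Flt3 and Kit held none of the 10 motifs in these letters. CpG dinucleotides numbered 3 in the Csf2rb2 sequence, 9 in Csf3r, 16 in Csf1, 18 in Flt3 and 20 in Kit. The Kit promoter, the one with the most CpG dinucleotides, was also the one outside every peak.

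A further 4 sequences, of 201 bases centred on a summit, are printed because they belong to high scored summits away from start sites and outside exons. They come from the GRCm38.p6 genome and are written along the strand of the gene they are named after. The Csf1 window is chr3:107778017-107778217 (summit score 1260), and the Csf2 window is chr11:54237086-54237286 (1670). The Csf3r window is chr4:126004199-126004399 (1531), and the Flt3 window is chr5:147389163-147389363 (1825).
Csf1 upstream summit: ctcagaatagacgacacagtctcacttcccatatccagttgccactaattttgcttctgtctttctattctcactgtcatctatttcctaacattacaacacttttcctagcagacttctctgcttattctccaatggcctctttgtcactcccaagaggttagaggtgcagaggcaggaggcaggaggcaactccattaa
Csf2 downstream summit: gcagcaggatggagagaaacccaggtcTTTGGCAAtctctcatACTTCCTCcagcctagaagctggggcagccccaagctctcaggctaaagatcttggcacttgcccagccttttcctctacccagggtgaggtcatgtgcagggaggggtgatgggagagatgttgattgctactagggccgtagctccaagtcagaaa
Csf3r upstream summit: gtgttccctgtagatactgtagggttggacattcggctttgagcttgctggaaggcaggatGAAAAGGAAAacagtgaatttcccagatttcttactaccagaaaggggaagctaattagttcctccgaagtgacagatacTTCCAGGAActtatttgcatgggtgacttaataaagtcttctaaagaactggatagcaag
Flt3 intron summit: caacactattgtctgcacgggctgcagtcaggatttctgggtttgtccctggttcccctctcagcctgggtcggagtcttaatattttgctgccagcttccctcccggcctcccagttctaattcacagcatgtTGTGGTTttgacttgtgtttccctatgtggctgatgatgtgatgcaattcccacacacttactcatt

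The windows differed in what they contained. The Csf2 window had a C/EBP match (TTGCNNAA on either strand), which began 73 bases before the summit, and a PU.1/ETS match 57 bases before it. The Csf3r window had an IRF match 39 bases before the summit and a STAT match, TTCCAGGAA, 41 bases after it. The Flt3 window had a RUNX match, TGTGGTT, 34 bases after the summit. The Csf1 window held none of the 10 motifs.

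**Figure D1:**
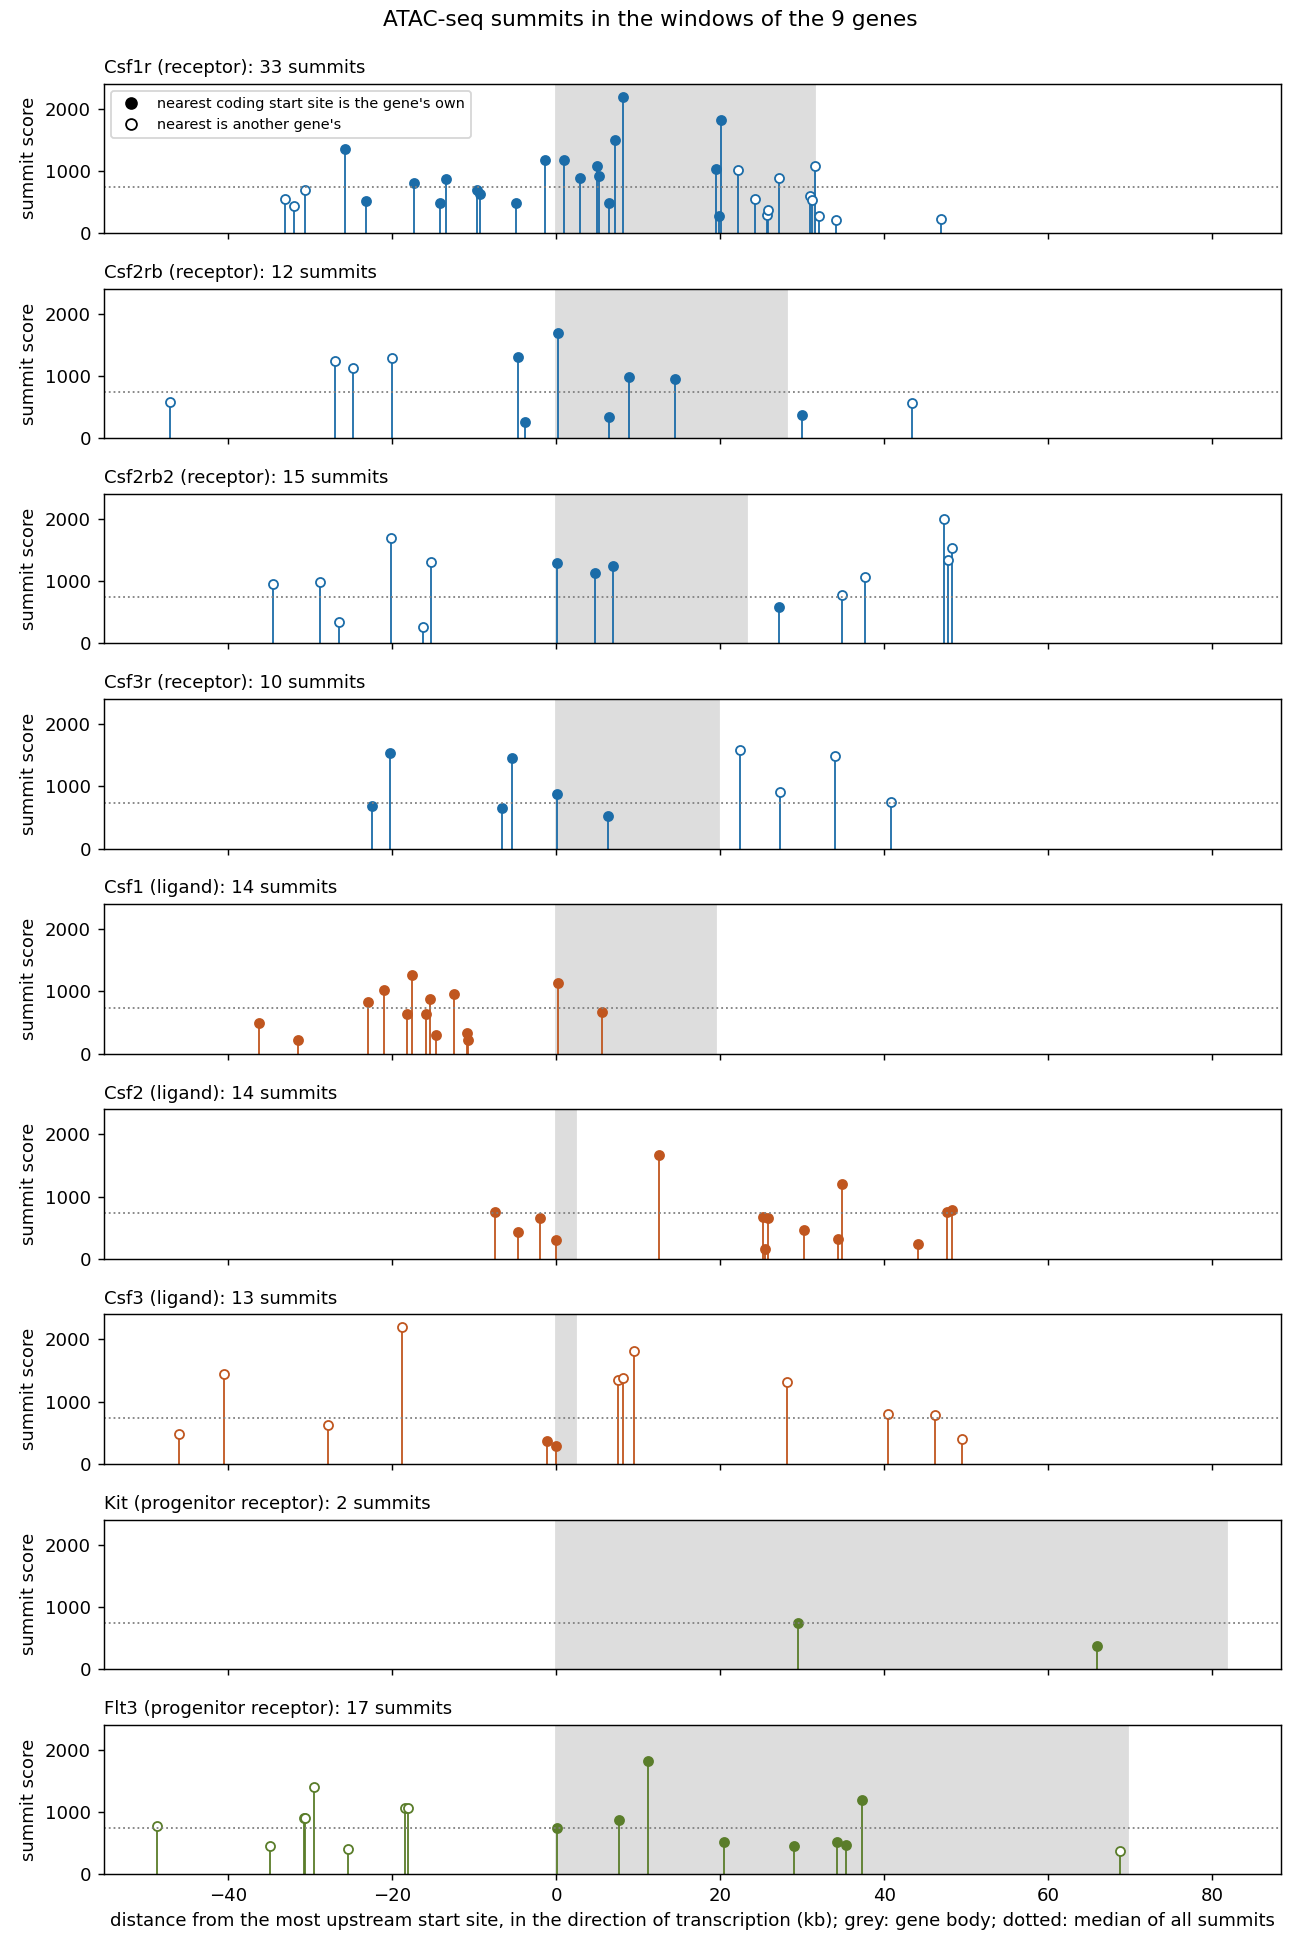
ATAC-seq summits in the windows of the 9 genes. The horizontal axis gives kb from the gene's most upstream start, in the direction of transcription, the vertical axis is the summit score, grey marks the gene body and the dotted line the median of all summits (737). Filled points are nearest to a start site of the gene itself and open points to that of another coding gene. Csf1r has 33 summits and Kit 2.

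Csf1r, the M-CSF receptor gene (mm10 chr18:61100598-61132149, plus strand), had by far the densest window of the 9 genes. It held 33 summits and 17 extended regions, and 98.7% of coding genes had fewer summits. Of these summits, 17 lay in the gene body, or 5.39 per 10 kb, a density higher than that of 97.6% of gene bodies. Their median score was 685, with 211 as the lowest and 2193 as the highest, and 15 of the 33 reached the median of the whole list. The nearest coding start site was that of Csf1r for 19 summits and that of Pdgfrb or Hmgxb3 for the other 14. Adjacent summits were a median of 1688 bp apart, and 11 of the gaps were shorter than 1000 bp.

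The highest summit of Csf1r did not lie at a start site. It scored 2193, above 99.5% of all summits, in a peak of 621 bp, and lay 8075 bp downstream of the most upstream start. The principal transcript starts 5254 bp downstream of that start, and the summit fell 2821 bp into it, in intron 1. In ENSMUST00000025523.12, a second coding transcript with an additional first exon, the same position is in intron 2. An intronic enhancer of Csf1r, known as FIRE, is well known in macrophages, but whether this summit coincides with it was not tested. None of the 10 motifs was matched within 100 bp of the summit. A summit of 1493 lay in the same intron, 1939 bp after the principal start, and one of 1812 in intron 10, with an AP-1 match (TGACTCA on either strand).

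At the start sites of Csf1r, the scores were intermediate. Summits at -243 and 4 bp from the principal start scored 1082 and 923. The best score within 1000 bp of any annotated start was 1176, for a summit with PU.1/ETS and RUNX matches located 990 bp after the most upstream start. This was higher than the best start site score of 31.3% of the 12321 coding genes with a start site summit. The 1001 bp around the most upstream start had 46.2% GC and a CpG ratio of 0.189. PU.1/ETS matches were found at 6 of the 33 summits and AP-1 matches at 7, while 9.08% and 15.9% of all summits had one.

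Of the Csf1r summits, 12 lay upstream of the most upstream start. The highest of these scored 1357 at -25780 bp, inside the adjacent receptor gene Pdgfrb, and had an NF-kB match. The next scored 1176 at -1425 bp with none of the motifs, followed by 867 at -13452 bp with an AP-1 match and 812 at -17360 bp with PU.1/ETS and NF-kB matches. Towards the end of the gene, intron 14 held a pair of low scored summits, 290 and 367, each with a STAT match. They lay 124 bp apart, so a single site may be counted for both. The same intron held a summit of 878 with a C/EBP match. A summit of 1082 with a PU.1/ETS match lay just past the end of the gene, and the remaining downstream summits scored between 211 and 282. The upper end of the Csf1r range was thus reached in introns 1 and 10, and its lower end downstream of the gene.

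Csf2rb and Csf2rb2, the beta chain genes, are divergent neighbours on chromosome 15, with start sites 20.0 kb apart. Csf2rb (chr15:78325752-78353847, plus strand) had 12 summits and Csf2rb2 (chr15:78282507-78305721, minus strand) had 15. Because the windows overlap, 10 summits belong to both. Coding genes with fewer summits made up 72.7% for Csf2rb and 82.0% for Csf2rb2. Of the 15 summits of the Csf2rb2 window, 4 were nearest to Csf2rb2 itself and 11 to Csf2rb or Ncf4. The 3 at the far end of the window, with scores of 1345, 1531 and 1995, were nearest to Ncf4, a gene for a subunit of the phagocyte NADPH oxidase.

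Csf2rb had the highest start site score of the 9 genes. Its summit scored 1696, lay 192 bp after the start in intron 1 and had PU.1/ETS, C/EBP and STAT matches. The body of Csf2rb held 4 summits, with scores of 1696, 979, 956 and 341, a number exceeding 81.4% of gene bodies. A further summit at -4734 bp scored 1308, with STAT and CTCF matches. The Csf2rb2 start site summit, 39 bp after the start, scored 1284, with PU.1/ETS and STAT matches. Inside Csf2rb2, intron 1 held summits of 1129 (AP-1 and RUNX matches) and 1236 (STAT and NF-kB matches). Neither start was CpG-rich, with CpG ratios of 0.119 for Csf2rb and 0.160 for Csf2rb2.

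The duplication of the beta chain genes was visible in the sequence of their accessible sites. The 301 bp around the Csf2rb start site summit aligned to the Csf2rb2 start site peak with 94.4% identity over 303 columns. The intron 2 summit of Csf2rb (score 979) aligned with 92.2% identity over 306 columns to the Csf2rb2 summit of 1236, and both carried STAT and NF-kB matches. Other sites were listed in only one of the copies. The Csf2rb2 intron summit of 1129 aligned with 91.9% identity to Csf2rb sequence that held no peak. The Csf2rb summits of 266, 956 and 1308 aligned to Csf2rb2 sequence with 95.7%, 85.9% and 73.4% identity, and none of these counterparts held a peak. The 76 bases centred on each of these summits, the length of a read, occurred once in the genome. The central 38 bases of the Csf2rb2 start site summit occurred at 2 places, so reads trimmed to that length could not be placed there uniquely.

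Csf3r, the G-CSF receptor gene (chr4:126024550-126044440, plus strand), had 10 summits, and 65.1% of coding genes had fewer. Its start site summit, 115 bp after the start, scored 878 and exceeded only 15.6% of genes with a start site summit. Higher scores were found upstream. The summit at -20251 bp, whose sequence is printed above, scored 1531 in a peak of 539 bp, and the one at -5383 bp scored 1456 with a C/EBP match. Summits at -6677 and -22547 bp scored 644 and 685, with a C/EBP and an AP-1 match. The gene body held a single further summit, in intron 4, of 524 with a PU.1/ETS match. The 4 downstream summits were nearest to Mrps15 or Oscp1, and those of 1581 and 1480 were 20 and 39 bp from the start sites of these genes.

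Among the ligands, Csf1 (chr3:107741048-107760469, minus strand) had its summits almost entirely upstream. Of 14 summits, 12 were located between -10718 and -36311 bp, and 10 of these lay within 24 kb of the start. No other coding gene lies in the window, the nearest being Ahcyl1 at 44.5 kb, and Csf1 was the nearest coding gene of all 14 summits. The highest score was 1260 at -17648 bp, followed by 1129 at the start site, where RUNX and IRF matches were found, and 1025 at -21004 bp. The summit of 1025 lay 383 bp from an annotated start site outside the coding genes. AP-1 matches occurred at 4 of the upstream summits, the best of which scored 956 at -12501 bp. The start site score was above that of 28.3% of genes. The only other summit in the gene body, in intron 3, scored 675.

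Csf2, the GM-CSF gene (chr11:54247271-54249667, minus strand), also had 14 summits, but its own start site ranked among the lowest. The summit at -5 bp scored 307, a value above only 0.463% of the genes with a start site summit. It lay in a peak of 443 bp and had an SP/KLF match. A summit at -2038 bp with PU.1/ETS and NF-kB matches scored 654. The highest score was on the other side of the gene, 1670 at 12481 bp downstream of the start, with the PU.1/ETS and C/EBP matches shown above. The next was 1200 at 34881 bp, in a peak of 85 bp without any of the motifs. Downstream of Csf2, a group of 3 summits between 25176 and 25833 bp scored 675, 154 and 654, with an AP-1, a C/EBP and an NF-kB match, and summits at 47628 and 48260 bp scored 748 and 780. The median over the window was 654, below that of the whole list. Csf2 was the nearest coding gene of all 14 summits, and the only other coding gene in the window was Il3, 15.6 kb away, which encodes IL-3 and had no peak at a start site.

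Csf3, the G-CSF gene (chr11:98701263-98703629, plus strand), had the lowest start site score of the 9 genes. The summit at -63 bp scored 282, with a C/EBP match, in a peak of 161 bp, and exceeded 0.317% of genes. A summit at -1157 bp with a CTCF match scored 376. These were the only 2 of its 13 summits that were nearest to Csf3. The other 11 were nearest to Gsdma2, Gsdma, Psmd3, Med24 or Thra and included the highest score of the window, 2206 at the Psmd3 start site. Med24 lies 0.962 kb from Csf3, so that the window count of 13, above 76.2% of coding genes, is mostly made up of summits nearer to other genes. CTCF matches were found at 4 of the 13 summits, against 3.03% of all summits.

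**Figure D2:**
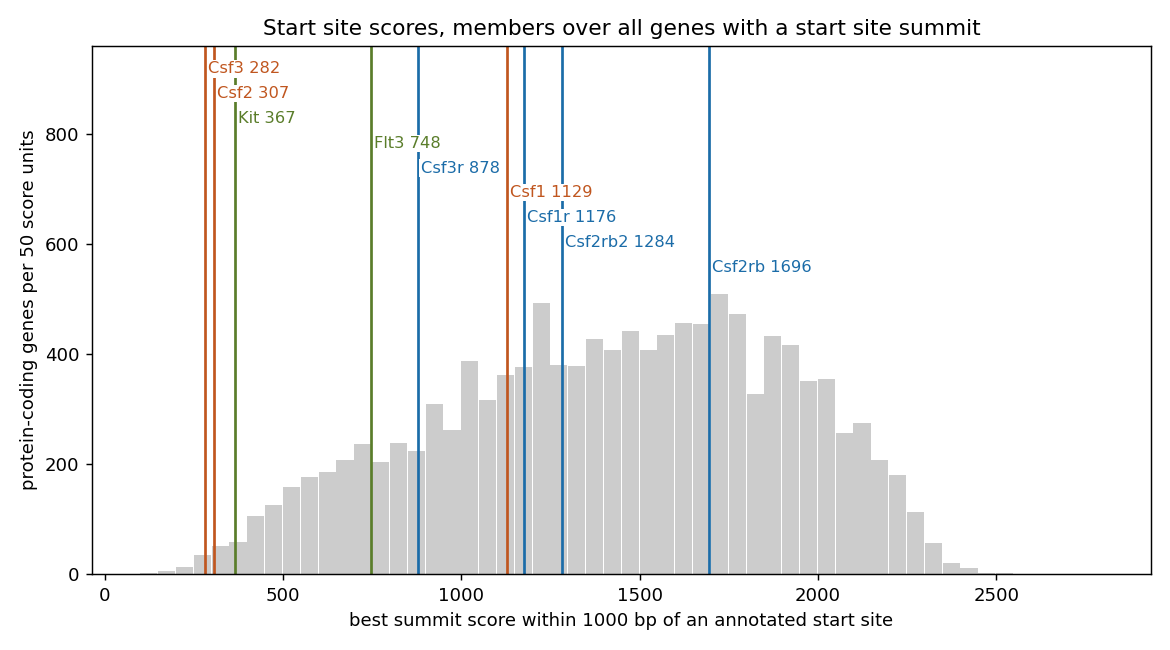
Best summit score within 1000 bp of an annotated start site. The horizontal axis is the score, the vertical axis the number of protein-coding genes per 50 score units, and lines mark the 9 genes (receptors blue, ligands orange, progenitor receptors green). Csf3, Csf2 and Kit lie at 282, 307 and 367, far below the median of 1456, and Csf2rb lies highest at 1696.

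The start site scores of the 9 genes thus spread over much of the range. Over all genes with a start site summit, the median of the best score was 1456, the quartiles were 1071 and 1799 and the 10th percentile was 727. Csf2rb, at 1696, was the only gene above the median. Csf2rb2 (1284), Csf1r (1176) and Csf1 (1129) lay between the lower quartile and the median, Csf3r (878) and Flt3 (748) between the 10th percentile and the lower quartile, and Csf2, Csf3 and Kit below the 10th percentile. Requiring a summit at or above the median of 737 left 6 of 9 genes with a start site peak, against 50.7% of all genes. The genes lost were Csf2, Csf3 and Kit.

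The progenitor receptors differed from each other. Kit (chr5:75574916-75656722, plus strand) had 2 summits and 2 extended regions in a window of 132 kb, and only 25.4% of coding genes had fewer summits. From its most upstream start, the nearest reference peak was 109 kb away upstream and 29.5 kb away downstream. The summits lay in intron 1 with a score of 737 and in intron 11 with a score of 367. The latter, with STAT and NF-kB matches, was counted at a start site only because a transcript classed as a retained intron starts 241 bp from it, 66167 bp into the gene. The other CpG-rich receptor, Flt3 (chr5:147330741-147400489, minus strand), had 17 summits, more than 86.5% of coding genes.

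Flt3 had a start site summit of 748, 83 bp after its start, and a body with 9 summits, a number exceeding 94.0% of genes. Per 10 kb of this long gene body there were 1.29 summits, more than in 79.1% of genes. The highest lay in intron 1, 11226 bp from the start, with a score of 1825 in a peak of 470 bp. Others were a summit of 867 in intron 1 with a C/EBP match and one of 1188 in intron 9 with PU.1/ETS and C/EBP matches. Of the 9 summits in the body, 4 reached the median score. Among coding genes, Pan3, the adjacent one, was the nearest for all 8 summits upstream of Flt3. The highest of these scored 1406, at 75 bp from the Pan3 start. A pair of 1059 each lay 43 and 339 bp from an annotated start site outside the coding genes. None of the 17 summits had a STAT match, against 6.35% of all summits.

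**Figure D3:**
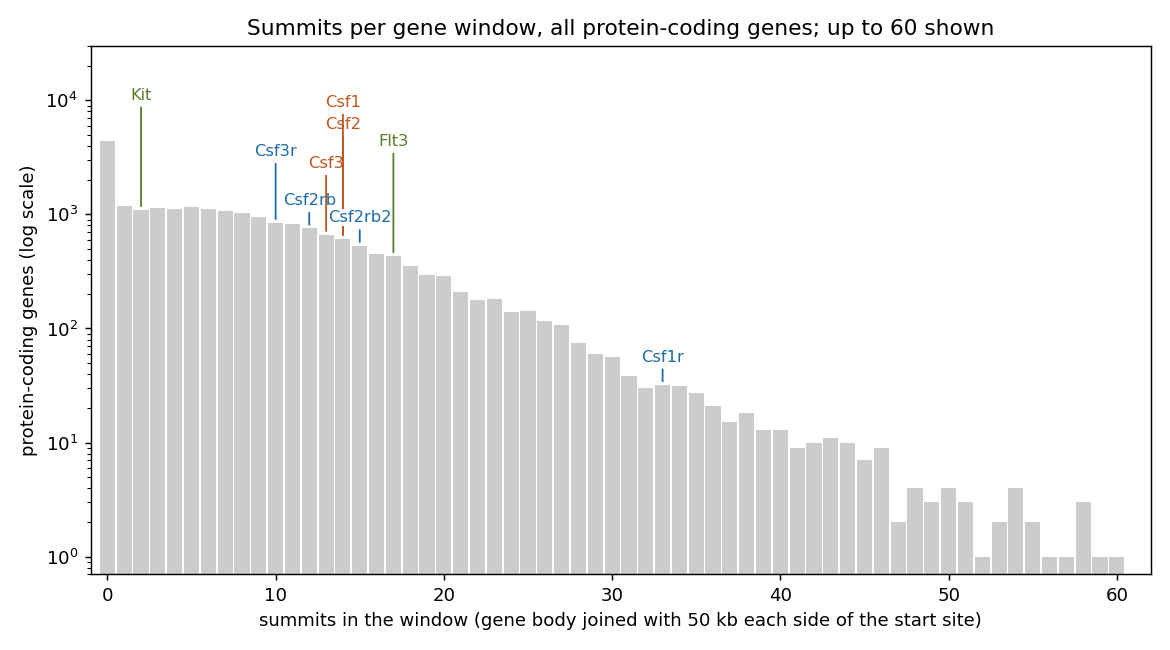
Summits per gene window over all protein-coding genes. The horizontal axis, shown up to 60, is the number of summits in the gene body joined with 50 kb on each side of the most upstream start, and the vertical axis the number of genes on a log scale, with the 9 genes marked. Csf1r stands at 33, 7 genes lie between 10 and 17 and Kit lies at 2.

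Across the 9 genes, the median was 14 summits and 10 extended regions per window, against 6 and 5 over all coding genes. With the exception of Kit, every gene was above both medians. The order by summits was Csf1r (33), Flt3 (17), Csf2rb2 (15), Csf1 and Csf2 (14 each), Csf3 (13), Csf2rb (12), Csf3r (10) and Kit (2). These are counts in a single catalog, so whether neighbours in this order differ cannot be said. The scores did not stand out. The 120 summits had a median score of 748 against 737 over the whole list, and 53.3% of them reached the list median, against 50.5% of all. For the 95 summits over 1000 bp from every start site the median was 675, against 664. Peak widths had a median of 231 bp against 227 bp.

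**Figure D4:**
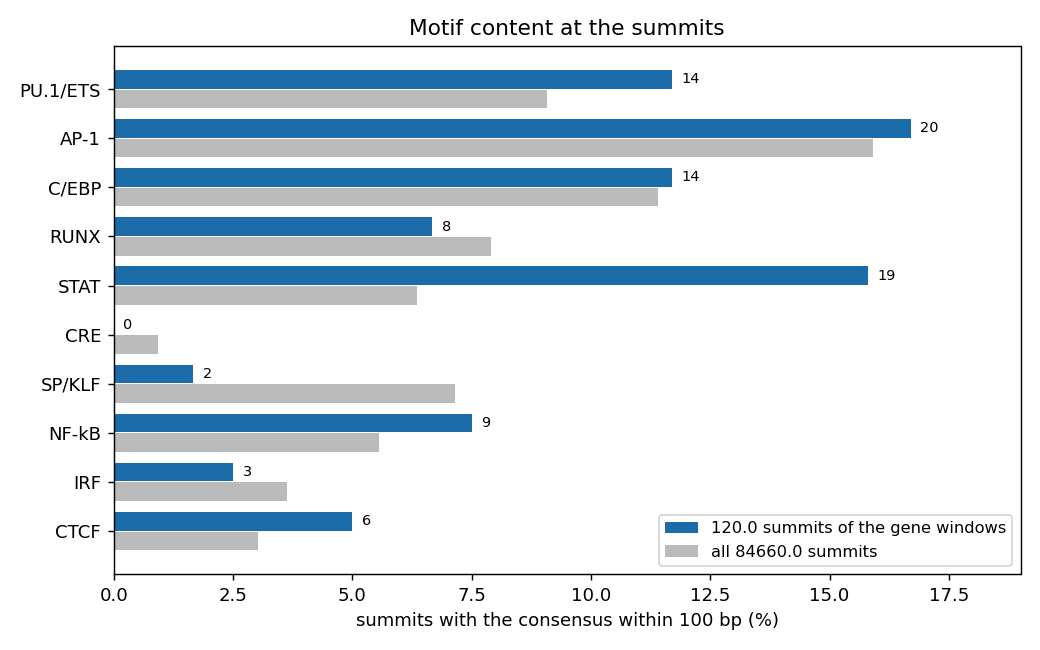
Share of summits with each consensus motif within 100 bp. Bars show the percentage of the 120 summits in the windows of the 9 genes (blue, with the number of summits) and of all 84660 summits (grey). STAT matches are found at 19 of the 120 summits (15.8% against 6.35%) and SP/KLF matches at 2 (1.67% against 7.15%).

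In the motif content of the summits, STAT matches were more frequent and SP/KLF matches less frequent than over the whole list. A STAT match within 100 bp was found at 19 of 120 summits (15.8%), against 6.35% of all summits. Csf2rb2 had 7, Csf2rb 6, and Csf1r and Csf3 4 each, while Csf3r, Csf1, Csf2 and Kit had 1 each. Part of this count comes from the paired beta chain genes, whose windows share summits and of which some summits have a near copy in the other gene. Their windows held 7 of the 19, and in the other windows 12 of 103 summits had a match (11.7%). Of the 4 in the Csf3 window, none was at a summit nearest to Csf3, and of the 4 in the Csf1r window, none was at one nearest to Csf1r. With 50 bp in place of 100 bp the share was 6.67% against 3.20% of all. Among the 76 summits nearest to a start site of one of the 9 genes, 10 had a match (13.2%). They were the 6 of the Csf2rb window, all nearest to Csf2rb or Csf2rb2, and 1 each of Csf3r, Csf1, Csf2 and Kit. Most of them thus belong to the beta chain pair. A match describes letters and does not show that a STAT protein is bound.

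The other motifs were closer to the whole list. PU.1/ETS matches were found at 14 summits (11.7% against 9.08%), C/EBP at 14 (11.7% against 11.4%), AP-1 at 20 (16.7% against 15.9%) and RUNX at 8 (6.67% against 7.91%). NF-kB matches occurred at 9 (7.50% against 5.55%), CTCF matches at 6 (5.00% against 3.03%, with 4 of the 6 in the Csf3 window) and IRF matches at 3 (2.50% against 3.64%). The cAMP response element TGACGTCA was matched at 0 summits, against 0.938% of all. SP/KLF matches were found at 2 summits, that of Csf2 at -5 bp and that of Thra in the Csf3 window. Among summits over 1000 bp from every start site they occurred at 0 of 95, against 1.85% of all such summits. With 200 bp in place of 100 bp the SP/KLF count was 8 of 120 (6.67% against 9.81%). At least 1 of the 10 motifs was present at 73 of 120 summits (60.8%), against 55.4% of all. Overlaps between motifs were not removed, so that a base may count under more than 1.

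Further receptors and ligands, which share a pathway or a receptor family with the 9 genes, were examined in the same way. Of these 10 genes, 6 had a peak at a start site, and 5 had one at the most upstream start, shares close to the 56.5% and 52.1% of all coding genes. Among them, Csf2ra and Il3ra, the alpha chains of the GM-CSF and IL-3 receptors, had best start site scores of 1916 and 1657, beside 1696 for Csf2rb. Flt3l, the ligand of FLT3, scored 1129 and Kitl, the ligand of KIT, 495. Pdgfrb and Pdgfra, receptors of the same family as CSF1R that are best known from mesenchymal cells, scored 411 and 402, and the Pdgfra peak was not at its most upstream start. The genes of this list without a start site peak were Il5ra, the alpha chain of the IL-5 receptor, and the cytokine genes Il3, Il5 and Il34, the last of which encodes a second ligand of CSF1R. A further list held 20 genes for proteins that relay the signal inside the cell, such as Jak2, Stat5a and Stat5b, or restrain it, such as Socs1 and Cish. Of these 20 genes, 20 had a start site peak, against 56.5% of all coding genes, and their windows held a median of 19.5 summits, against 6.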

How the data were processed

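ATAC-seq libraries of 18 samples had been trimmed by the authors with Trimmomatic 0.39, aligned to mm10 with ShortStack and filtered with SAMtools 1.9, and peaks were called with MACS2 2.2.6 (tool versions per the study's methods and the submitters' processing notes). For the reference set, the study's methods describe keeping peaks that passed a q-value limit and overlapped between replicates. The deposited lists are pooled over all libraries, and 0 columns belonged to other samples. Only summits carry a value, a score deposited by the authors whose scale is not given in the sources used here. Duplicates were kept and no shift to the Tn5 cut site is named, which can affect heights and summit positions. No depth per sample, and hence no precision, could be derived, and the comparison of stimuli and times was not made.

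Peaks were assigned with GENCODE M21 (GRCm38.p6, mm10 coordinates, counted from 1) by Python 3.11.15 with pandas 2.3.3. Scripts were tested on simulated data. Start sites were compared within 1000 bp and motifs were searched on both strands within 100 bp. NF-kB, IRF and CTCF were searched by their usual consensus. Beta chain sequences were aligned with blastn 2.17.0. RefSeq promoters matched 6 of 9 genes, not Csf1r, Csf2rb and Csf3. The rule named all 9 genes and the pathway genes without a start site peak, and other list genes are named as examples chosen after their values were seen. Members and lists were chosen with earlier results of these data known. The values of 1 signalling gene, counted in its list, are not reported here. Alternatives used other windows, distances, score limits and motif flanks.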

Additional observations from a re-analysis of the deposited data

How the results depend on the processing

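The number of genes with a start site peak stayed at 9 with limits of 500 bp (all genes 54.9%) and 2500 bp (59.9%). It was 8 for the most upstream start (52.1%) and 6 with a score limit at the median (50.7%). Window counts moved with the window. The median of the 9 genes was 14 summits and 10 extended regions. It was 6 summits (all genes 3) and 5 regions (2) with 20000 bp, and 25 summits (12) and 18 regions (9) with 100000 bp. It was 7 summits (3) when only those at or above the median score were counted. Per 10 kb of window it was 1.40 summits (0.587) and 1.000 regions (0.400). Csf1r had the most summits and Kit the fewest under each of these. Without the gene body, the median counts of the 9 genes stayed at 14 summits (all genes 6) and 10 regions (4). The share of summits with at least 1 motif was 43.3% with 50 bp and 75.0% with 200 bp (all summits 39.5% and 68.4%), and 64.2% at distal summits (57.8%). Shares of single motifs moved more. The STAT share was 6.67% against 3.20% with 50 bp and 22.5% against 12.1% with 200 bp, and the SP/KLF share 0.833% against 4.35% and 6.67% against 9.81%. With 50 bp the IRF share was 0.833% against 2.00%, and with 200 bp the C/EBP share was 20.0% against 18.4%. No paired analysis was possible because the lists carry no value per library. For the same reason no replicate could be left out and no error given. Depth is unknown, so a site that is not listed may lie below the calling limit. It may also have failed the overlap between replicates that the study's methods describe.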
